A study of Mus musculus with 11 samples.

Results

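The 32 genes described here encode enzymes and regulators of sterol and fatty acid synthesis. They are a list of symbols by pathway, drawn up with earlier results of these data known, out of the 55487 genes in the files. Each of the 32 symbols matched 1 Ensembl gene. RNA-seq was performed on beta cells of 12-week-old male C57BL/6 mice, FACS-sorted from cultured islets as EpCam-positive, CD24-low, CD71-positive cells without the blood and endothelial markers CD45, TER119 and CD31. The control group (4 libraries, replicates 1 to 4) came from islets cultured without IFNγ. The PD-L1low (3 libraries, replicates 2 to 4) and PD-L1high (4 libraries, replicates 1 to 4) groups came from islets exposed to 50 pg/mL IFNγ for 20 h and were separated by surface PD-L1, a protein that IFNγ induces. All groups share the strain and the culture, and the islets behind both PD-L1 groups received the same IFNγ treatment. In the paper's stained sections of islets given this dose for 20 h, PD-L1high cells lay at the islet periphery. How much IFNγ reached the cells of each gate, and where in the islet they lay, was not measured in these libraries, so that gate, position and received dose cannot be told apart. Each library is bulk RNA from sorted cells, so that fewer cells of a type and less RNA per cell cannot be told apart.

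Cells make cholesterol from acetyl-CoA through the mevalonate pathway, which ends in farnesyl diphosphate and then squalene, and through a series of ring-forming and demethylating steps. Fatty acids are built from the same cytosolic acetyl-CoA, then elongated and desaturated. Most of these enzymes are under the control of the SREBP transcription factors, which SCAP carries out of the endoplasmic reticulum when sterols are low and which INSIG proteins hold back when sterols are high. In beta cells cholesterol is also a component of the insulin granule membrane.

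Beta cell markers dominated every library: *Ins2*, an insulin gene, stood between 67570 and 185684 TPM (a scaled level per transcript length) in controls, with 106824 to 143803 in PD-L1low and 115769 to 183996 in PD-L1high cells. Library totals ran from 10422018 to 15810769 expected counts, and the share of mitochondrial counts from 5.54% to 13.3%. Control replicate 1 stood apart from the other controls. It had the highest mitochondrial share, its summed TPM over 7 beta cell markers was 110132 against 185166 to 252113 in the other controls, and its summed TPM over the 32 genes was 706 against 1223 to 1354. It was also the lowest of all 11 libraries for 13 of the 32 genes. The counts and medians against control are therefore also given without it. Only PD-L1high replicate 1 shares its replicate number. In fits with replicate number as a term, leaving out this control therefore also takes away what PD-L1high replicate 1 adds to the comparison. Markers of other endocrine cells were present at low levels and differed between the sorted groups. The summed TPM of 2 pancreatic polypeptide (PP) cell markers was 390 to 1345 in control, 79.3 to 118 in PD-L1low and 934 to 2242 in PD-L1high cells, that of 6 alpha cell markers 273 to 1593, 312 to 407 and 740 to 1911, and that of 3 delta cell markers 11.3 to 60.3, 4.87 to 17.14 and 17.98 to 82.5. Summed markers of acinar, endothelial, stellate and fat cells did not exceed 0.98 TPM in any library, and those of leukocytes did not exceed 6.04 TPM. The fat cell markers *Plin1* and *Fabp4* were listed at 0 in every library. The sum of 3 duct cell markers was 79.3 to 172 TPM in control, 150.4 to 182 in PD-L1low and 75.8 to 450.5 in PD-L1high cells, nearly all of it from *Spp1*.

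Promoter sequence is shown for a synthesis enzyme and for a regulator of the same pathway because known sequence elements of this pathway can be read in them. RefSeq starts (GRCm38.p6) were given for 25 of the 32 genes, and *Fads1*, *Fdft1*, *Fdps*, *Scd1*, *Scd2*, *Sqle* and *Stard4* had none in the table used. In the 250 bases before the start, on both strands, the sterol regulatory element written as TCACNCCAC was found in 1 of the 25 genes, *Hmgcs1*, and in 1.22% of 27025 genes. The letters CCAAT, to which the SREBP partner NF-Y binds, were found in 19 of the 25 (76%) against 37.5% of all genes, and the E-box CACGTG, which SREBP1 can also bind, in 5 of the 25 (20%) against 6.86%. The interferon gamma-activated element TTCNNNGAA was found in 1 of the 25 genes, *Ebp*, against 8.13% of all genes. These matches are letters in a window, not measured binding. Other forms of these elements, and bases outside the window, were not searched, so a gene without a match may still hold an element. The 250 bases before the *Hmgcs1* start (chr13:119690101-119690350, plus strand) and the 201 bases before the GENCODE start of *Insig1* (chr5:28071162-28071362, plus strand) follow, with the sterol element, CCAAT read on either strand and the E-box in capitals.
Hmgcs1: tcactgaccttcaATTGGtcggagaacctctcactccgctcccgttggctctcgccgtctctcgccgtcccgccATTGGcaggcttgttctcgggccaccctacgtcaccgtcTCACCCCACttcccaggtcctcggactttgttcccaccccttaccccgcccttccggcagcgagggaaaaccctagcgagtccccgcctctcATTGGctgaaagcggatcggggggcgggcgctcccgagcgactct
Insig1: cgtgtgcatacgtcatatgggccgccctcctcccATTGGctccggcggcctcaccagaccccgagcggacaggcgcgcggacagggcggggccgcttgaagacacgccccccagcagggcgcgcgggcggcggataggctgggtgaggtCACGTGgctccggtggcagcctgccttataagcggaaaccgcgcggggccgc
*Hmgcs1* has 1 sterol element and 3 CCAAT boxes in this stretch, and *Insig1* has 1 CCAAT box and 1 E-box. The window of *Idi1* holds 2 CCAAT boxes and none of the other elements.

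By level per length, the 32 genes spanned a wide range in these beta cells. *Acly*, which makes cytosolic acetyl-CoA from citrate, had by far the highest level, a mean of 551 TPM over the 11 libraries, followed by *Sqle* and *Msmo1* in the sterol pathway with 58.7 and 58.5 TPM. *Scd2*, a stearoyl-CoA desaturase, came next with 40.3 TPM, then *Srebf1*, which encodes SREBP1, with 39.7 TPM and *Fdps*, the farnesyl diphosphate synthase, with 36.1 TPM. Among the other mevalonate genes *Hmgcs1* stood at 30.4, *Idi1* at 16.9, *Pmvk* at 11.3, *Mvk* at 3.27 and *Acat2* at 2.94 TPM, so that *Fdps*, at the end of this branch, had the highest level of it. In the squalene and sterol branch *Fdft1*, *Cyp51* and *Sc5d* stood at 21.1, 19.1 and 18.85 TPM, *Lss*, *Ebp* and *Dhcr7* at 9.93, 9.17 and 8.68 TPM, and *Tm7sf2*, *Nsdhl* and *Hsd17b7* at 5.96, 5.72 and 3.12 TPM. Most of these enzymes were thus well below *Sqle* and *Msmo1*. Of the regulators, *Insig1*, *Insig2* and *Srebf2* were close together at 33.4, 32.4 and 31.95 TPM, with *Scap* at 23.7 and *Stard4* at 7.91 TPM. *Fasn*, *Acaca* and *Elovl6*, which follow *Acly*, stood at 19.2, 15.5 and 11.3 TPM, and *Fads1* at 13.1 against 3.44 TPM for *Fads2*. The lowest levels were those of *Mvd*, the mevalonate diphosphate decarboxylase, with 1.02 TPM, and of *Scd1*, the main desaturase of liver and fat, with 1.52 TPM. *Scd2* was thus far above *Scd1*, the other stearoyl-CoA desaturase among the 32 genes, on the TPM scale. The estimated counts divide reads that both genes could have given, and stearoyl-CoA desaturase genes outside the list were not examined. Summed over the 4 desaturase genes, the TPM level was 35.2 to 86.9 in control, 62.0 to 87.2 in PD-L1low and 41.1 to 47.3 in PD-L1high cells, and the ranges of the sorted groups did not overlap. *Scd2* made up most of this sum, with 40.3 TPM against a mean of 58.4 TPM for the sum over all libraries. The summed mevalonate genes did not overlap either, at 107 to 141 TPM in PD-L1low and 86.4 to 102 TPM in PD-L1high cells. The sums of the other role groups overlapped.

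All 32 genes passed the filter on low counts and were tested among 16252 genes with edgeR's quasi-likelihood test, with p-values adjusted over all tested genes and a threshold of 0.05. Levels by library are given below as CPM, counts scaled by the effective library size, which can be compared between libraries but not between genes of different length. A log2 fold change is that of the fitted model.

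The comparison of PD-L1high with PD-L1low cells asks how cells with high surface PD-L1 differ from cells with low surface PD-L1 out of islets given the same IFNγ treatment. Of the 32 genes, 3 were lower in PD-L1high cells: the desaturase *Scd2*, the isoprenoid isomerase *Idi1* and the sterol sensor *Insig1*. None was higher. Over all genes tested, 0.0923% were called lower and 0.640% higher in this comparison, so that these 3 were among 15 genes called lower.

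*Scd2* (chromosome 19, 44293674 to 44306864, GRCm38) introduces the double bond that turns saturated into monounsaturated fatty acids. Its level was 165, 199, 202 and 275 CPM in control replicates 1 to 4, 264, 298 and 284 CPM in PD-L1low replicates 2 to 4, and 143, 141, 146 and 169.8 CPM in PD-L1high replicates 1 to 4. Every PD-L1high library was below every PD-L1low library. The control libraries covered the space between and overlapped both groups. Control replicate 1 was below PD-L1high replicate 4, and control replicate 4 was at the level of the PD-L1low cells. The means were 281 ± 17.1 CPM (SD, n = 3) in PD-L1low and 150 ± 13.3 CPM (SD, n = 4) in PD-L1high cells. The log2 fold change was -0.85 (standard error 0.12, adjusted p = 0.00207, edgeR), a 1.80-fold lower level.

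*Idi1* (chromosome 13, 8885501 to 8892451) interconverts the isoprene units that *Fdps* joins. It stood at 48.7, 44.3, 44.4 and 47.7 CPM in the controls, at 47.5, 69.6 and 74.5 CPM in PD-L1low and at 34.1, 30.04, 39.3 and 37.0 CPM in PD-L1high cells. Here the controls were tightly grouped, the PD-L1high libraries lay below all of them, and 2 of the 3 PD-L1low libraries lay above all of them. The log2 fold change between the sorted groups was -0.86 (standard error 0.14, adjusted p = 0.00477, edgeR).

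*Insig1* (chromosome 5, 28071363 to 28078662) holds SCAP in the endoplasmic reticulum and is itself a known SREBP target. Its level was 72.7, 71.8, 68.6 and 102 CPM in control, 84.8, 108 and 121 CPM in PD-L1low and 51.9, 57.2, 59.6 and 83.7 CPM in PD-L1high cells. The sorted groups did not overlap, but PD-L1high replicate 4 was nearly as high as PD-L1low replicate 2. The log2 fold change was -0.68 (standard error 0.12, adjusted p = 0.0100, edgeR).

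These 3 calls leaned on PD-L1low replicate 3: without it none of the 32 genes passed, with adjusted p-values of 0.051 for *Scd2*, 0.0783 for *Idi1* and 0.176 for *Insig1* (edgeR), and log2 fold changes of -0.75, -0.81 and -0.56. The *Idi1* call was also lost without PD-L1low replicate 4 (adjusted p = 0.065) and the *Insig1* call without PD-L1high replicate 2 or 3 (0.0665 and 0.0992) and in the model without replicate number (0.128). Without control replicate 1 all 3 remained called (0.000567, 0.00633 and 0.0123). The PP, alpha and delta cell markers, whose sums were higher in PD-L1high than in PD-L1low libraries with no overlap, though for delta cells by a narrow gap, moved with these differences, and their part in them was not tested.

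**Figure D1:**
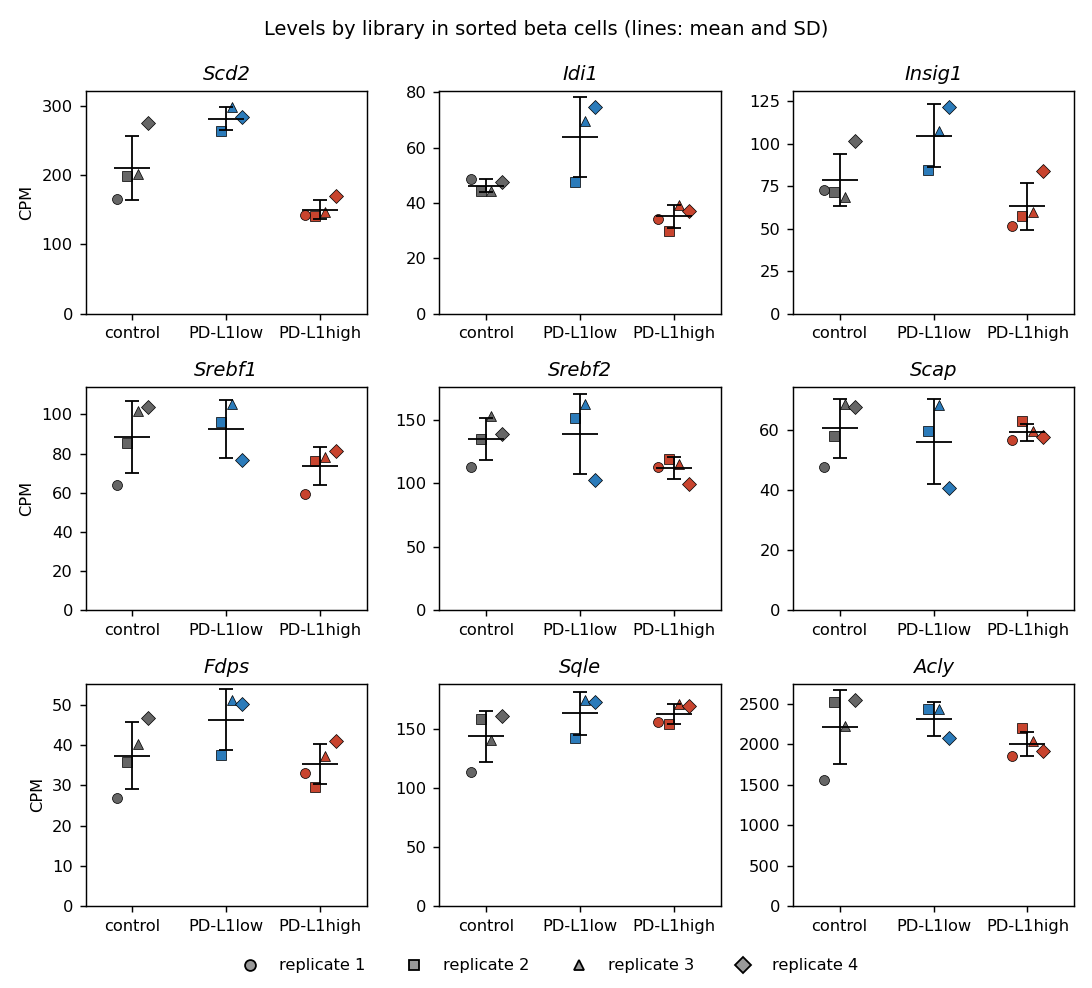
CPM (y axis, from 0) in each control (grey), PD-L1low (blue) and PD-L1high (red) library for 9 genes, with symbols for replicate numbers and lines for the mean and SD of each group. For Scd2, Idi1 and Insig1 in the top row the PD-L1high libraries lie below all PD-L1low libraries, while for the other 6 genes the groups overlap.

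The direction was shared by most of the 32 genes. The fitted log2 fold change was below 0 for 27 of 32 (84.4%) against 50.5% of all genes tested, and the median was -0.28 against -0.00418 over all genes. Over the alternatives, in a count added after the data were seen, 25 to 30 of the 32 were below 0. At an unadjusted p under 0.05, 12 were lower and 1 higher, where the background was 4.28% and 4.24% of all genes. For 13 of the 32 every PD-L1high library was below every PD-L1low library, against 3.59% of all genes, and for none was it the reverse, against 4.41%. Within replicate numbers 22 of the 32 were lower in PD-L1high than in PD-L1low cells in each of replicates 2 to 4, a pattern shown by 16.0% of all genes, with 26, 29 and 26 of the 32 lower in replicates 2, 3 and 4. The 13 genes with non-overlapping groups are among these 22 by construction, and the data do not show that replicate numbers pair the libraries. The genes share the same 7 libraries, so these counts describe the list and are no test of it.

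Among the 7 mevalonate genes, 6 had a log2 fold change below 0, with a median of -0.30. Besides *Idi1*, *Hmgcs1*, which makes HMG-CoA, had non-overlapping groups, with 92.2, 112 and 123 CPM in PD-L1low and 78.0, 81.1, 63.4 and 89.6 CPM in PD-L1high cells (log2 fold change -0.45, adjusted p = 0.247, edgeR). *Fdps* stood at 37.5, 51.2 and 50.3 CPM in PD-L1low and at 33.0, 29.7, 37.3 and 41.0 CPM in PD-L1high cells, so its groups overlapped (-0.30, adjusted p = 0.591). The thiolase gene *Acat2* gave -0.26, the kinase genes *Mvk* and *Pmvk* -0.47 and 0.02, and *Mvd* -0.06 with a 95% interval of -1.59 to 1.46. *Mvd* was counted too rarely, at 0.388 to 2.84 CPM, to resolve even large differences.

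In the branch from squalene to cholesterol 8 of 11 genes had a log2 fold change below 0, with a median of -0.32, and none passed. The groups did not overlap for 5 of them: the lanosterol synthase *Lss* (-0.32), the lanosterol demethylase *Cyp51* (-0.45), the sterol reductase *Tm7sf2* (-0.95), the decarboxylating dehydrogenase *Nsdhl* (-0.38) and the ketosteroid reductase *Hsd17b7* (-0.36). Their adjusted p-values ran from 0.291 to 0.712 (edgeR). *Tm7sf2* overlaps *Vps51* on the same strand, and its lowest library, PD-L1high replicate 4, stood at 1.97 CPM against 4.313 to 5.503 CPM in the other PD-L1high libraries. The squalene synthase *Fdft1* gave -0.18, the methylsterol oxidase *Msmo1* -0.37 and the sterol reductase *Dhcr7* -0.23. *Sqle*, the squalene epoxidase, a rate-limiting enzyme of this branch, stood at 143, 175 and 173 CPM in PD-L1low and at 156, 155, 171 and 169.5 CPM in PD-L1high cells. Its groups overlapped, and the 95% interval of its log2 fold change, -0.20 to 0.32, does not reach the -0.85 of *Scd2*, though the difference between the 2 genes was not tested. The isomerase *Ebp* had the largest value above 0, with 6.96, 10.5 and 8.85 CPM in PD-L1low and 8.56, 9.70, 15.1 and 13.5 CPM in PD-L1high cells (0.62, unadjusted p = 0.0239, adjusted p = 0.511, edgeR), and the desaturase *Sc5d* gave 0.08.

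None of the genes for the SREBP factors and their escort passed. *Srebf1* stood at 96.0, 106 and 76.5 CPM in PD-L1low and at 59.4, 76.1, 78.2 and 81.3 CPM in PD-L1high cells (-0.21, adjusted p = 0.711, edgeR). *Srebf2*, the main regulator of the sterol branch, stood at 151, 163 and 103 CPM and at 113, 119.5, 116 and 99.9 CPM (-0.25, adjusted p = 0.644), and *Scap* at 59.5, 68.3 and 40.7 CPM and at 56.8, 63.0, 59.7 and 57.5 CPM (0.16, adjusted p = 0.833). For all 3 genes PD-L1low replicate 4 was the lowest PD-L1low library and the groups overlapped. *Insig2*, the second INSIG gene, gave -0.01 with a 95% interval of -0.37 to 0.36 that does not reach the -0.68 of *Insig1*. *Stard4*, a sterol carrier and SREBP target, came closest to the 3 called genes, with 39.7, 47.2 and 55.2 CPM in PD-L1low and 28.0, 26.5, 32.5 and 32.5 CPM in PD-L1high cells. Its groups did not overlap (-0.60, adjusted p = 0.0735, edgeR), and it passed under 6 of 19 alternatives.

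All 4 genes of fatty acid synthesis had log2 fold changes below 0 and none passed. *Acly* stood at 2428, 2428 and 2071 CPM in PD-L1low and at 1857, 2199, 2042 and 1918 CPM in PD-L1high cells (-0.11, adjusted p = 0.883, edgeR). *Acaca*, which makes malonyl-CoA, had 107, 91.4 and 80.5 CPM against 73.9, 72.5, 71.2 and 71.2 CPM, and its groups did not overlap (-0.37, adjusted p = 0.342). The synthase *Fasn* gave -0.22 and the elongase *Elovl6* -0.13. The 4 desaturases had the lowest median of the role groups, -0.85. *Scd1* stood at 5.63, 10.5 and 9.55 CPM in PD-L1low and at 2.45, 2.15, 3.77 and 5.61 CPM in PD-L1high cells, the largest fitted difference of the 32 genes, at -1.26 with an adjusted p of 0.103 (edgeR). *Fads2*, the first desaturase of polyunsaturated fatty acids, stood at 8.53, 11.1 and 11.9 CPM against 5.15, 6.52, 5.42 and 4.26 CPM (-0.85, adjusted p = 0.397), and its neighbour on chromosome 19, *Fads1*, gave -0.09. The groups did not overlap for *Scd1* and *Fads2*, but the highest PD-L1high and the lowest PD-L1low library of *Scd1* were almost equal.

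**Figure D2:**
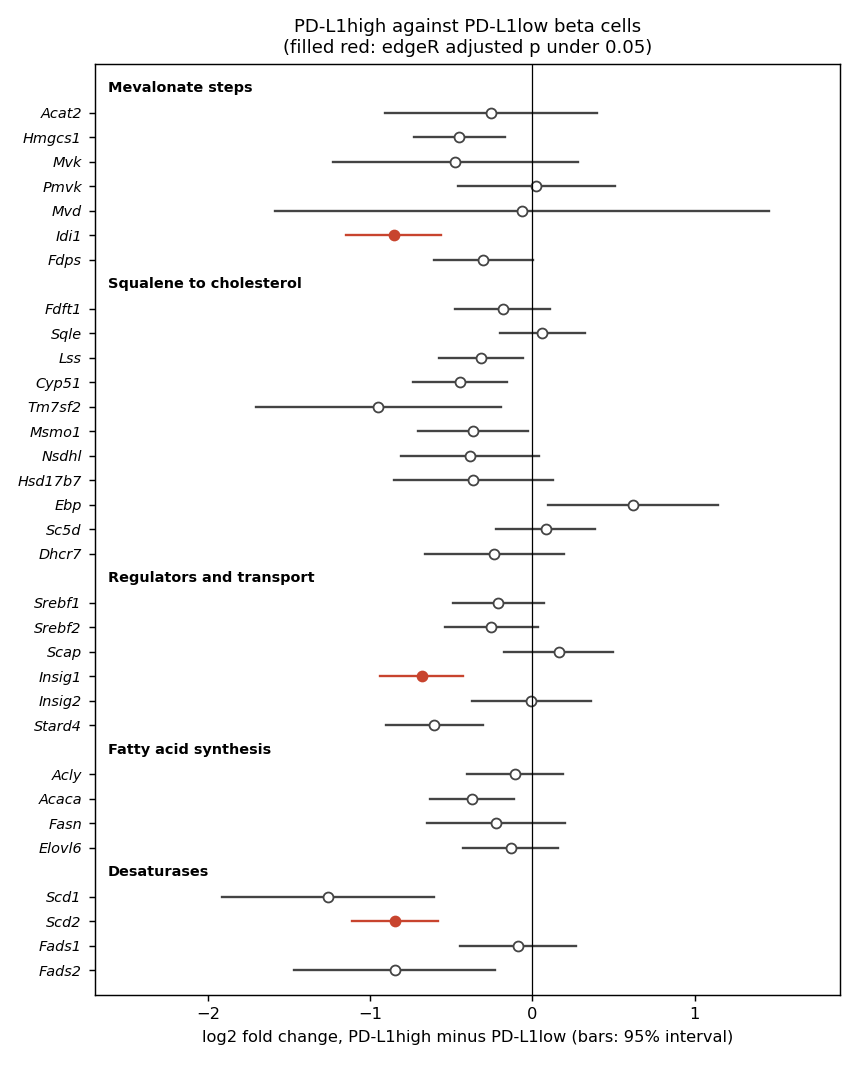
Log2 fold change of each of the 32 genes, PD-L1high minus PD-L1low (x axis), with its 95% interval, grouped by role. Points lie left of 0 for 27 genes, and the 3 filled red points (Idi1, Insig1, Scd2) are the genes that passed an adjusted p of 0.05.

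Against control cells, the comparison asks whether IFNγ-exposed cells of either gate differed from unexposed cells. None of the 32 genes passed edgeR's test in PD-L1high cells, while *Scd2* passed in DESeq2 and in limma-voom, in a comparison where 0.0492% of all genes were called lower and 0.941% higher. At an unadjusted p under 0.05, 11 were lower and 0 higher, against 3.52% and 4.13% of all genes. The log2 fold change was below 0 for 24 of 32 genes (53.0% of all genes), with a median of -0.16. Without control replicate 1 the numbers at an unadjusted p under 0.05 were again 11 and 0 (2.51% and 3.18% of all genes), 25 of the 32 were below 0 and the median was -0.26. The median was also -0.26 without PD-L1high replicate 1. These fits are nearly the same, since either omission leaves replicate number 1 with a single library. The term for replicate number takes up that library, so it adds nothing to the comparison. The median was -0.10 without PD-L1high replicate 3 or 4, and 19 were below 0 without control replicate 2. *Scd2* came closest, at -0.47 (adjusted p = 0.0714, edgeR), and passed under 7 of 19 alternatives, among them the fit without control replicate 1 (-0.56, adjusted p = 0.0311). *Idi1* gave -0.41 (adjusted p = 0.279) and *Insig1* -0.33 (adjusted p = 0.382), and without control replicate 1 these were -0.37 and -0.28 (adjusted p = 0.68 and 0.824).

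Every PD-L1high library was below every control library for 5 of the 32 genes, *Mvk*, *Idi1*, *Stard4*, *Acaca* and *Fads2*, where 1.61% of all genes behaved in this way, and for none were the PD-L1high libraries all above, against 2.68%. Without control replicate 1 the number lower became 13 (4.06% of all genes), adding *Lss*, *Cyp51*, *Srebf1*, *Srebf2*, *Acly*, *Fasn*, *Scd2* and *Fads1*. This second count was made after the low levels of control replicate 1 had been seen. For *Acaca* the control libraries stood at 93.3, 83.8, 93.7 and 90.2 CPM against 71.2 to 73.9 CPM in PD-L1high cells (-0.32, adjusted p = 0.383, edgeR). The SREBP transcription factor genes gave -0.25 for *Srebf1*, with controls at 63.8, 85.4, 102 and 104 CPM, and -0.27 for *Srebf2*, with controls at 113, 135, 153 and 139 CPM. *Scap* controls stood at 47.7, 58.0, 68.8 and 67.7 CPM, *Fdps* controls at 26.8, 35.7, 40.2 and 46.7 CPM, *Sqle* controls at 114, 159, 141 and 162 CPM and *Acly* controls at 1563, 2520.0, 2227 and 2544 CPM. In these 6 genes control replicate 1 was the lowest control, and the PD-L1high libraries lay within the control range except for *Srebf1* in replicate 1 and *Srebf2* in replicate 4, which were below it, and *Sqle* in replicates 3 and 4, which were above it.

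In PD-L1low cells none of the 32 genes passed in edgeR, DESeq2 or limma-voom, in a comparison where 0.0185% of all genes were called lower and 0.0615% higher. At an unadjusted p under 0.05 no gene was lower and 3 were higher, against 1.11% and 0.991% of all genes. These 3 were *Idi1* (0.45), *Scd2* (0.38) and *Insig1* (0.36), each with an adjusted p that rounds to 1.00, and their values come from the PD-L1low libraries already described. No gene had all PD-L1low libraries below all controls, against 1.43% of all genes, and *Fdft1*, *Lss* and *Nsdhl* had all of them above, against 1.28%. Without control replicate 1 the same 3 genes did so, against 3.8% of all genes. The log2 fold change was below 0 for 8 of 32 genes (49.9% of all genes), with a median of 0.14. The number below 0 was 11 without control replicate 1, with a median of 0.11, and 3 again were higher at an unadjusted p under 0.05 (1.57% of all genes). It was 4 without control replicate 4 and 5 in the model without replicate number, and the median was 0.23 without control replicate 2 and 0.22 without PD-L1low replicate 2. Both comparisons use the same controls, and their values for *Scd2* were thus -0.47 in PD-L1high and 0.38 in PD-L1low cells, for *Idi1* -0.41 and 0.45, and for *Insig1* -0.33 and 0.36. None of these 6 values passed.

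**Figure D3:**
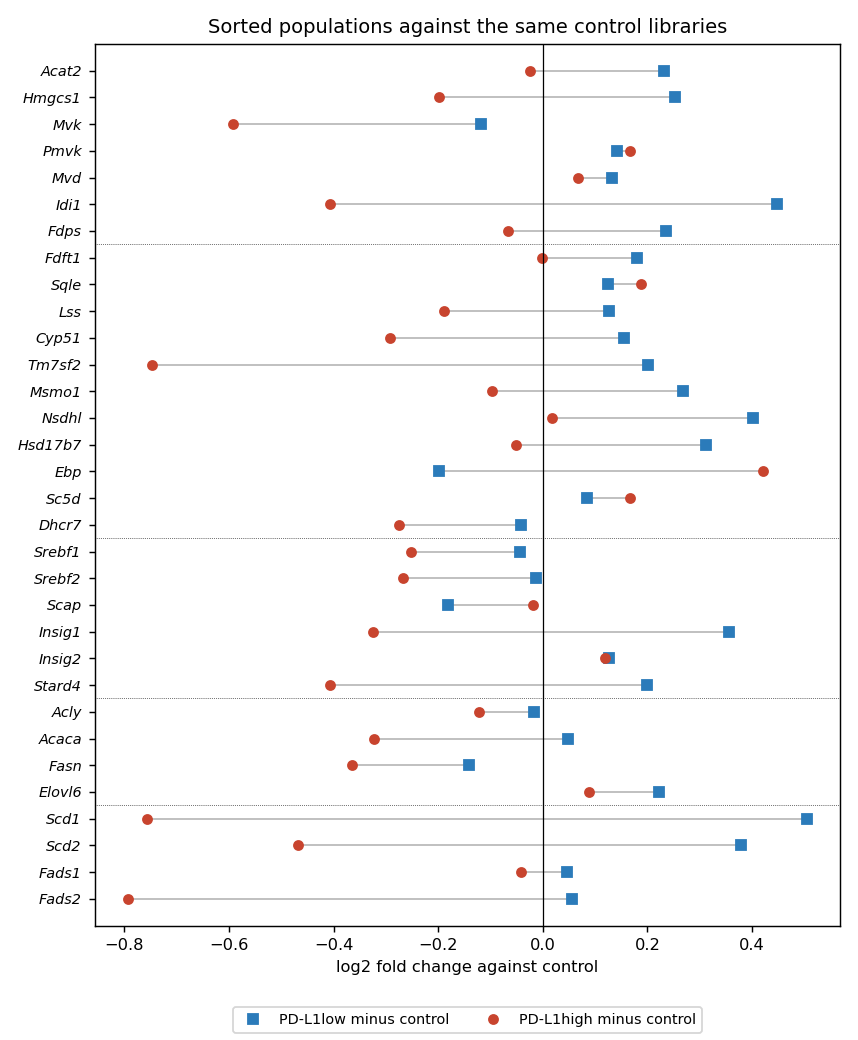
Fitted log2 fold changes against the same 4 control libraries (x axis) for the 32 genes, in PD-L1low (blue squares) and PD-L1high cells (red circles), with dotted lines between role groups. Red circles lie left of 0 for 24 genes and blue squares for 8, and no point passed the adjusted threshold.

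Across libraries, the highest of the 11 values was in a PD-L1low library for 22 of the 32 genes, in a control for 8 and in a PD-L1high library for 2. PD-L1low replicates 3 and 4 were the highest for 10 and 9 genes and replicate 2 for 3. The lowest value was in a control for 16 genes, 13 of them in control replicate 1, in a PD-L1high library for 15 and in a PD-L1low library for 1. The median of log2(level over the gene's mean level) was 0.05, 0.29 and 0.25 in PD-L1low replicates 2 to 4, and -0.23, -0.16, -0.12 and -0.15 in PD-L1high replicates 1 to 4. In the controls it was -0.30 in replicate 1 and 0.04, 0.04 and 0.12 in replicates 2 to 4, so the other 3 controls stood above every PD-L1high library, and only replicate 4 of them above a PD-L1low library, replicate 2.

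**Figure D4:**
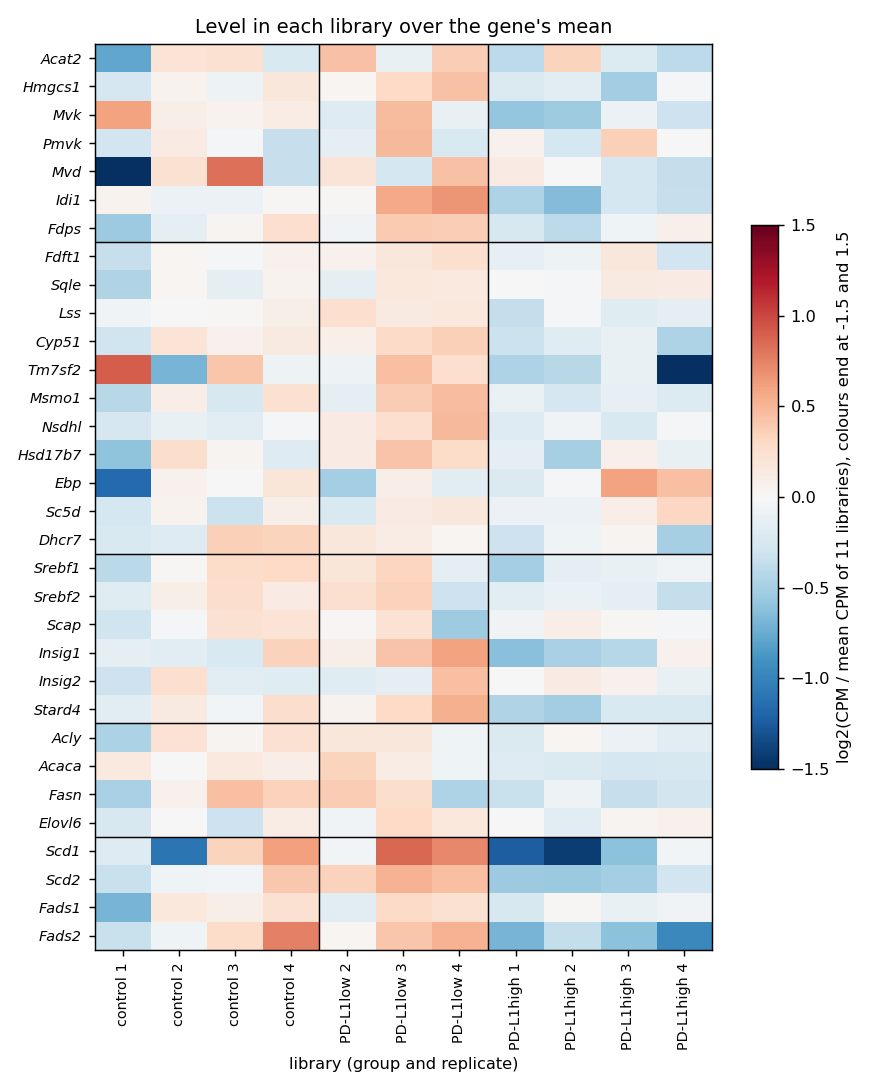
Level of each of the 32 genes (rows, by role group) in each library (columns) as log2 of CPM over the gene's mean CPM, red above and blue below the mean. PD-L1low replicates 3 and 4 are mostly red, the 4 PD-L1high libraries mostly blue, and control replicate 1 is mostly blue, unlike the other controls.

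Of 29 further genes of the pathway that are not among the 32, 26 were tested, and none passed edgeR's test in any of the 3 comparisons, nor DESeq2 or limma-voom. Between the sorted groups 4 were lower and 2 higher at an unadjusted p under 0.05, against 4.28% and 4.24% of all genes, with 15 of 26 below 0 (50.5% of all genes) and a median of -0.05. Every PD-L1high library was below every PD-L1low library for 6 of the 26, against 3.59% of all genes, and above for 2, against 4.41%. *Lpin1*, a phosphatidate phosphatase, gave -0.39 between the sorted groups (adjusted p = 0.489), with 58.9, 53.2 and 59.3 CPM in PD-L1low and 41.4, 53.7, 37.0 and 36.1 CPM in PD-L1high cells. The cholesterol hydroxylase *Ch25h*, which interferon is known to induce in macrophages, had 0 counts in all 11 libraries, where a floor of 3 counts is 0.19 to 0.288 CPM. *Cyp27a1* and *Acacb*, the other 2 genes left out by the filter, reached at most 3 and 9 counts.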

How the data were processed

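Expression was measured by RNA-seq in 11 libraries of sorted mouse beta cells. Per the labels and the methods, 5 ng of total RNA was made into strand-specific libraries from random primers with the Ovation Solo kit, alignment used STAR 2.5.2b and genome GRCm38.p6, and RSEM (version not given in the sources used here) counted reads over GenCode M23 genes. The authors deposited expected counts per gene, not normalized, with TPM values beside them. DESeq2 1.32.0, with batch in its formula, was the test of the authors. Here the expected counts were rounded to whole numbers, which changed no library total by more than 0.000388%, and genes were kept with filterByExpr at a count minimum of 10. They were tested with edgeR 4.0.16 (TMM, robust quasi-likelihood fit, R 4.3.3) with group and replicate number as terms, the latter standing for the batch, and p-values were adjusted by Benjamini-Hochberg over all 16252 genes tested. The common biological coefficient of variation was 0.258. TPM served for levels between genes, for marker levels and for summed levels between libraries and groups. No test used TPM. RSEM divides reads shared by similar genes such as *Scd1* and *Scd2*. Each n is an independent biological sample per the methods. No pair of libraries agreed within sampling noise (chi-square per degree of freedom of at least 9.33 over 55 pairs), so none is a copy of another. This check cannot show whether the samples are independent. Intervals are 95% intervals of the fit, and the depth of a library sets a floor that covers counting error only.

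Gene positions are from GENCODE M21 (GRCm38), and promoters from RefSeq. The 32 genes, the role groups, the 29 further genes and the markers were chosen with earlier results of these data known. The text names every one of the 32, and gives values in each library for those that passed, the 2 with the smallest p in each comparison, the highest TPM of each role group and *Srebf1*, *Srebf2*, *Scap* and *Insig1*, plus others shown because their groups did not overlap, and among the further genes those that passed and the 1 with the smallest p in each comparison, some of which are not reported here. The others shown by library were chosen after their values were seen. The fit was tested on simulated data. Alternatives were DESeq2 1.42.0, limma-voom (limma 3.58.1), other normalizations, no or a stricter filter (count minimum 30), models without replicate number or of the compared groups, and leaving out each library. Tables and plots were made in Python 3.11.15 with pandas 2.3.3 and matplotlib 3.10.9.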

Additional observations from a re-analysis of the deposited data

Results flagged for a closer look

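Within the groups of 4 libraries, 64 sets of values were examined for a library far from the others, of which chance flags about 1 in 20, and 2 were found. *Mvk* stood at 6.44 CPM in control replicate 1, against 4.41 to 4.57 CPM in the other controls, so that for this gene control replicate 1 was the highest control rather than the lowest. *Insig1* stood at 102 CPM in control replicate 4, against 68.6 to 72.7 CPM in the other controls. The causes were not tested.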

How the results depend on the processing

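For each comparison 19 alternatives were run, 11 of which left out 1 library each. The median log2 fold change over the 32 genes kept its sign in all of them, from -0.36 to -0.24 between the sorted groups, from -0.26 to -0.10 in PD-L1high against control and from 0.11 to 0.23 in PD-L1low against control. Between the sorted groups the number of the 32 called, 3, became 5 with no filter on low counts and with DESeq2, which added *Scd1* and *Stard4*, and ran from 0 (without PD-L1low replicate 3) to 4 when 1 library was left out. In PD-L1high against control the number, 0, became 1 (*Scd2*) with upper quartile normalization, no filter, a count minimum of 30, DESeq2 and limma-voom. It was 0 to 1 when 1 library was left out, being 1 without control replicate 1 or PD-L1high replicate 1. The fits without these libraries are nearly the same, since each leaves replicate number 1 with a single library that adds nothing to the comparison. Of the further pathway genes 1, *Mlxipl*, a transcription factor of glucose-driven lipid synthesis, was called with no filter in PD-L1high against control and between the sorted groups, and when 1 library was left out the number was 0 to 1 in the former, being 1 without control replicate 2. The causes were not tested.

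In the model with no replicate block, between the sorted groups, 2 of the 32 were called: *Scd2* (-0.91, adjusted p = 0.00623) and *Idi1* (-0.86, adjusted p = 0.0108), but not *Insig1* (-0.73, adjusted p = 0.128). The block was kept because the study's methods have a batch term. Deviations of libraries that share a replicate number correlated from -0.33 to 0.41, and not every library correlated best with its own number, so these data do not show that the numbers pair the libraries.

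In a count over all 32 genes added after the data were seen, 10 genes changed sign under at least 1 alternative in PD-L1high against control, 13 in PD-L1low against control and 8 between the sorted groups. None of them had passed in that comparison, and none passed where its sign had changed. The largest reported values among them were -0.10 (*Msmo1*), 0.20 (*Tm7sf2*) and 0.16 (*Scap*), in the same order, and the largest values after a change of sign were those of *Mvd*, which went from 0.07 to -0.51, from 0.13 to -0.25 and from -0.06 to 0.34. Among the 9 genes followed by the naming rule, those that changed sign with no replicate block were *Srebf1* (0.0639), *Acly* (0.0611) and *Srebf2* (0.0412) in PD-L1low against control and *Sqle* (-0.00525) between the sorted groups. Among the same 9, when 1 library was left out, *Fdps* ran from -0.19 to 0.0117 and *Scap* from -0.113 to 0.116 in PD-L1high against control. In PD-L1low against control *Srebf1* ran from -0.13 to 0.117, *Acly* from -0.0891 to 0.0986, *Srebf2* from -0.104 to 0.134 and *Scap* from -0.323 to 0.0212, and between the sorted groups *Sqle* ran from -0.0155 to 0.137 and *Scap* from -0.0331 to 0.304.

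Depth and spread limit the rarest genes: the 95% interval of *Mvd* between the sorted groups was -1.59 to 1.46. With 3 PD-L1low libraries, calls that compare them can rest on 1 library.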
